A study of Homo sapiens with 2 samples.

Results

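A set of 5 microRNA loci known from haematopoietic cells, MIR142, MIR17HG, MIR181A1HG, MIR181A2HG and MIR155HG were examined for PAX5 binding in NALM6, a human cell line grown from a B-cell precursor leukaemia. Each locus was taken as a window on hg19 given to the nearest 1 kb, plus 10 kb on each side, and a peak belonged to it when its summit lay inside. The windows were chromosome 17 from 56.401 to 56.412 Mb for MIR142, chromosome 13 from 92.0 to 92.007 Mb for MIR17HG, chromosome 1 from 198.776 to 198.907 Mb for MIR181A1HG, chromosome 9 from 127.42 to 127.461 Mb for MIR181A2HG and chromosome 21 from 26.934 to 26.948 Mb for MIR155HG. They held 14 of the 21361 PAX5 peaks of the series, 6 at MIR142, 2 at MIR17HG, 4 at MIR181A1HG, 2 at MIR181A2HG and 0 at MIR155HG. The loci were chosen by name and by the width and fold of their peaks in this same list, in particular those of a wide peak at MIR142, so the peak values are a description and carry no test.

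The series consists of 1 ChIP sample, made from untreated NALM6 cells with an Abcam antibody against PAX5, and 1 input control made without antibody, whose title also carries the name RXL. Per the labels, cells of both samples grew for 4 days in RPMI free of phenol red with 10% FBS and 2 mM glutamine. The authors called peaks on 46190180 ChIP tags, pooled from an unstated number of libraries, against 25416858 control tags. The pool hides any spread between its libraries. There were no replicates, so intervals cover counting error only. Those of reads and folds are exact Poisson 95% intervals of the ChIP read count, those of densities are exact Poisson 95% intervals of the number of peaks, and others are named where they appear.

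PAX5 is a paired-box transcription factor that commits lymphoid progenitors to the B lineage and then both activates B-cell genes and silences genes of other lineages. MicroRNAs are cut as hairpins from longer transcripts, often long non-coding host RNAs, and one arm of the hairpin then guides repression of messenger RNAs that pair with its seed, bases 2 to 8. Since hairpins of one host are transcribed together, a factor bound at a host's start or at its enhancers can act on the whole cluster.

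The mature microRNAs of these loci are shown because they are the products that each locus makes. All 12 microRNA genes of the loci were matched in the RefSeq table (GRCh38.p14), which lists 22 different mature names for them. The main arm or arms of each are printed 5′ to 3′ with the seed in capitals.
miR-142-3p (chromosome 17): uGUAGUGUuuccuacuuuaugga
miR-142-5p (chromosome 17): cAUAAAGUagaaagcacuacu
miR-17-5p (chromosome 13): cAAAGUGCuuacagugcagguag
miR-20a-5p (chromosome 13): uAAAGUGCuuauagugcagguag
miR-18a-5p (chromosome 13): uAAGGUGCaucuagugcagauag
miR-19a-3p (chromosome 13): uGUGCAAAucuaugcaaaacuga
miR-19b-3p (chromosome 13): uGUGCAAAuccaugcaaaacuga
miR-92a-3p (chromosome 13): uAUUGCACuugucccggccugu
miR-181a-5p (chromosomes 1 and 9): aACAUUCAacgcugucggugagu
miR-181b-5p (chromosomes 1 and 9): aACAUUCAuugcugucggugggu
miR-155-5p (chromosome 21): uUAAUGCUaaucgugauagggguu

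Several of these sequences share a seed, within MIR17HG or between the miR-181 loci. miR-17-5p and miR-20a-5p share a seed, which 8 of the 2370 mature names of the table carry. miR-19a-3p and miR-19b-3p share another, which no further name carries (2 names). miR-181a-5p and miR-181b-5p share a seed with 5 names in all, and both products are listed identically from the chromosome 1 and the chromosome 9 locus. A difference in PAX5 binding between MIR181A1HG and MIR181A2HG therefore concerns 2 sources of the same 5p products. Their 3p products carry different names and sequences. The seeds of miR-142-3p and of miR-155-5p were each carried by 1 name only.

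The 87-base hairpin of MIR142, printed with both mature arms in capitals, lies on the minus strand at chr17:58331232-58331318 of GRCh38.p14. That position cannot be set against the hg19 positions of the peaks.
MIR142 hairpin: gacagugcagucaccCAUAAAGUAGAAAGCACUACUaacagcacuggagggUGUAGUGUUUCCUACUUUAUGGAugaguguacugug

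MIR142, whose microRNA is abundant across blood cell lineages, carried the strongest and by far the widest PAX5 peak of the 5 loci. It spanned 6055 bp on chromosome 17 from 56404826 to 56410880. At its summit, 56406357, lay 278 ChIP reads (246 to 313) over an input background of 9.90 extended reads. The authors' fold enrichment, the ChIP pileup scaled to the depth of the input over that background with 1 added to each, was 14.1 (12.5 to 15.9). In the whole list it had rank 2 by width, 52 by fold, 18 by −log10 q (115) and 15 by reads at the summit.

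Among the 10 widest peaks of the list it had the highest fold, followed by 10.8 at a 3762 bp peak on chromosome 10. The MIR142 peak was 15.8 times as wide as the median peak of 383 bp. The only wider one, 6464 bp on chromosome 22, had a fold of 6.94 with 113 reads, and the next, 5634 bp on chromosome 20, had a fold of 7.08 with 73 reads. The MIR142 peak covered 55.0% of its 11 kb window, and left 3.83 kb free on the low-coordinate side and 1.12 kb on the high side. Its summit lay off centre, 1531 bp from the low end and 4523 bp from the high end. The caller gave a single summit per peak, so whether several binding sites were joined in it was not resolved.

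**Figure D1:**
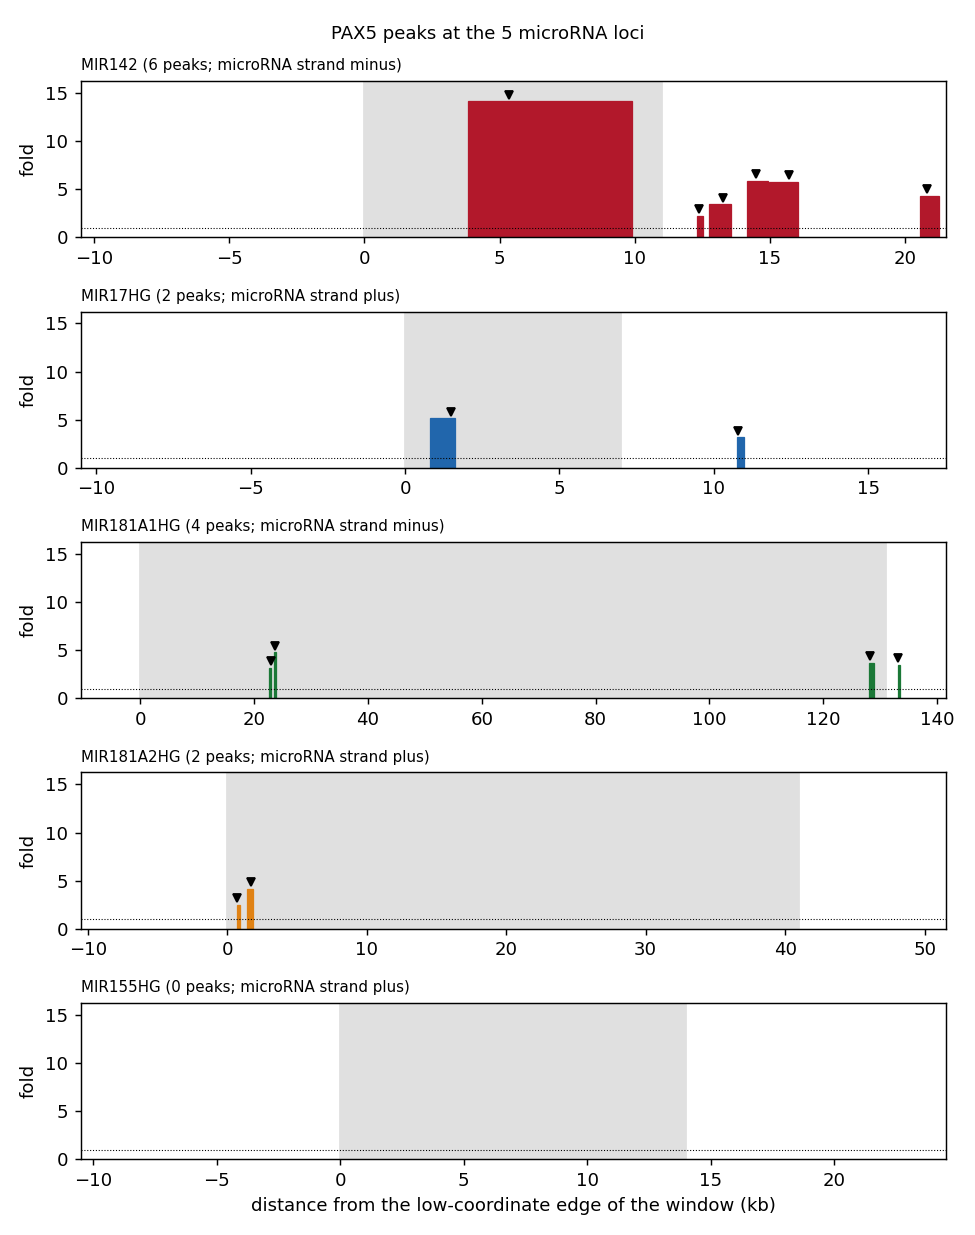
PAX5 peaks at each locus, drawn to scale as bars at their position in kb from the low-coordinate edge of the window (grey), with 10 kb on each side. Bar height is the authors' fold enrichment at the summit (triangle), applied over the whole peak width, and the dotted line marks a fold of 1. The MIR142 panel holds the 6055 bp peak and 5 narrower ones on its high side, and the MIR155HG panel is empty.

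Another 5 peaks lay in the flank of MIR142, all on the high-coordinate side, which is upstream in the orientation of the minus-strand hairpin. In order of position they held 67, 63, 117, 166 and 108 ChIP reads at their summits. The input background used for them was 16.0, 9.45, 10.1, 15.0 and 13.0 reads in the same order, and the folds were 2.23, 3.41, 5.88, 5.77 and 4.32. The highest of these 5 folds had a counting interval of 4.88 to 7.03, and the fold of the wide peak, for which the locus was chosen, was 2.40 times as large. The first of them, at 56413294 to 56413520, stood on the highest input background of all 14 peaks, and 99.0% of all peaks of the list had a fold at or above its own.

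The middle of this group formed a dense stretch. From 56415165 to 56415922 lay a 758 bp peak with a fold of 5.88, and 55 bp further on a 1065 bp peak from 56415978 to 56417042 with 166 reads (142 to 193) and a fold of 5.77 (4.94 to 6.71). Their fold intervals overlapped, so their order by fold was not resolved. Their read intervals, 96.8 to 140 and 142 to 193, did not overlap. Only the wide peak and the 1065 bp peak reached a width of 1000 bp among the 14, as did 3.22% of all peaks. The last peak, with its summit at 56421805, lay 0.195 kb inside the outer limit of the flank, and the next one outside it, at 56429654, had 79 reads over 14.0 and a fold of 2.96. On the low-coordinate side no peak was called within the flank. The nearest summit there was 38.7 kb from the window, at 56362253, with 49 reads over 9.00 and a fold of 2.80.

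Together the 6 peaks spread over 17.4 kb from 56404826 to 56422255 and covered 55.1% of it. When all peaks of the list less than 5 kb apart were joined into runs, this run had rank 4 of 16074 by the length that its peaks covered (9611 bp), of which the wide peak supplied 63.0%. By number of peaks the run shared rank 45. The 6 peaks in 31 kb corresponded to 194 per Mb (71.0 to 421), against 17.0 per Mb for chromosome 17 as a whole. Cutting the chromosomes evenly into pieces of 31 kb put 6 or more summits into 151 of 94822 pieces, or 0.159%, where unsequenced stretches, which can hold no peak, count as pieces without one. This locus was chosen for its peaks, so the density and the share only locate it in the list. The density interval takes the peaks as independent, although some lie close together, and it carries no test against the chromosome.

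Which transcript these peaks belong to could not be decided from positions alone. In RefSeq the hairpin starts 1202 bp into MIR142HG, a host RNA of 1633 bp. TSPOAP1-AS1 overlaps this host, TSPOAP1, which encodes a protein that binds the peripheral benzodiazepine receptor, lies 2.09 kb away, MIR4736 lies 3.46 kb away and SUPT4H1, a transcription elongation factor subunit, 12.7 kb away. The window with its flanks is large enough to take in parts of these genes.

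MIR17HG, the host of the miR-17-92 cluster that in mice sustains the passage from pro-B to pre-B cells by restraining the cell-death protein Bim, carried 1 moderate peak inside its 7 kb window and 1 weak peak beyond it. The inner peak, 829 bp from 92000804 to 92001632 on chromosome 13, held 56 reads (42.3 to 72.7) over a background of 5.17 and had a fold of 5.15 (3.93 to 6.64). The outer one, from 92010734 to 92010965, held 27 reads (17.8 to 39.3) over 4.00 and had a fold of 3.17. Their read intervals did not overlap, but their fold intervals did.

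The inner peak stood higher in the list by width than by reads. Only 6.10% of all peaks were as wide or wider, while 60.4% had as many reads or more. A fold at or above its own was seen at 22.8% of all peaks. Its low read count stood beside a low input background, below the 8.00 reads of the median peak. The summit was 1.48 kb from the window edge at which the plus-strand host begins. In RefSeq the host is 6.89 kb long, close to the window, and its 6 hairpins begin between 2.92 kb (MIR17) and 3.63 kb (MIR92A1) from the host start. Read against the window edge, which is known to 1 kb, the summit fell between the host start and the first hairpin.

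Around MIR17HG the list was nearly empty. The next summit on the low side was 2.64 Mb from the inner one, and the next on the high side was 546 kb from the outer one. A gap of 2.64 Mb or more was seen at 6 of the 464 gaps between neighbouring summits of chromosome 13 and at 0.517% of all gaps on the autosomes and X. The peaks of MIR17HG were therefore an isolated pair 9.29 kb apart, unlike the run at MIR142. The shares of gaps count long and short gaps alike, so they do not give the part of the sequence that lies in long ones. A piece of 27 kb with 2 or more peaks occurred in 4.08% of pieces genome-wide.

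MIR181A1HG, host of miR-181a-1 and miR-181b-1, carried 4 peaks in 2 pairs 105 kb apart. Across the genome, 9.77% of pieces of 151 kb, the length of this window with its flanks, held 4 or more. miR-181a has been tied in mice to B-lineage output of progenitors and to the sensitivity of T-cell receptor signalling. One pair straddled the edge of the window at which the minus-strand host begins. A 952 bp peak from 198904033 to 198904984 on chromosome 1, with its summit 2.83 kb inside, held 78 reads (61.7 to 97.3) over 11.0 and had a fold of 3.66. Its partner from 198909063 to 198909442, with the summit at -2.17 kb from the edge, that is upstream of it, held 57 reads (43.2 to 73.9) over 8.33 and had a fold of 3.47. Their folds were nearly equal, and both lay under the median of all peaks, 3.89.

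The second pair lay deep in the host, 693 bp apart from summit to summit. From 198798673 to 198799029 the list held a peak with 27 reads over 4.00 and a fold of 3.17, and from 198799521 to 198799843 one with 40 reads (28.6 to 54.5) over 3.82 and a fold of 4.77 (3.47 to 6.42). The second had the highest fold of the locus, over the lowest input background of the 14 peaks. By reads the 952 bp peak near the host start came first. In RefSeq the hairpins begin 78.3 and 78.4 kb from the start of the 129 kb host, whereas this pair lay 107 and 108 kb from the window edge. No called summit was closer than 28.9 kb to the hairpin offset, a comparison that takes the window edge as the host start.

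MIR181A2HG, the second source of the same 5p products, carried 2 peaks, both next to the window edge at which this plus-strand host begins. As many or more were held by 9.93% of pieces of 61 kb. The stronger spanned 482 bp on chromosome 9 from 127421390 to 127421871 and held 85 reads (67.9 to 105) over 10.6, with a fold of 4.13 (3.31 to 5.08). The weaker, from 127420675 to 127420919, held 51 reads (38.0 to 67.1) over 10.6, with a fold of 2.51 (1.89 to 3.27). Both stood on the same input background, and their read intervals did not overlap. Their summits lay 1.68 and 0.742 kb inside the edge.

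The rest of the 41 kb MIR181A2HG window held no summit. The hairpins begin 34.0 and 35.3 kb from the host start in RefSeq, so no peak was called near that offset. The gap to the next summit on the low side was 362 kb and on the high side 137 kb. The host overlaps NR6A1, a nuclear receptor gene, in RefSeq, and the peaks cannot be assigned to one of them by position.

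The hosts of both miR-181 clusters thus had a pair of peaks within 3 kb of the window edge where the host begins. The folds there were 3.66 and 3.47 at MIR181A1HG and 4.13 and 2.51 at MIR181A2HG. The strongest of each pair had 78 and 85 reads, with overlapping intervals, over backgrounds of 11.0 and 10.6. The fold intervals of these stronger peaks, 2.91 to 4.55 and 3.31 to 5.08, also overlapped. Only MIR181A1HG had further peaks inside the host.

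MIR155HG, also called BIC, gives rise to miR-155, which is induced in activated B cells and raised in several B-cell lymphomas. No PAX5 peak was called in its 14 kb window or within 10 kb of it. The nearest summit, at 26979746 on chromosome 21, was 31.7 kb beyond the 3′ side of the plus-strand host and held 44 reads over 8.00, with a fold of 2.80. On the other side the nearest was 1592 kb away. The locus thus lay in a gap of 1.64 Mb without any summit, a length reached by 6 of the 347 gaps of chromosome 21 and by 1.33% of all gaps. These shares count gaps and not bases. A long gap takes up more sequence than a short one, so a locus falls into one more often than the shares tell. In pieces of 34 kb cut evenly over the genome, 84.8% held no peak, so a piece without one was common. Unsequenced stretches count among these empty pieces and raise this share.

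The absence of a call does not show the absence of binding. The weakest called summit of the list had 19 reads, on the genome mean of the input background (2.12 reads). Among the 2617 peaks with a background within 0.5 reads of the median, the lowest had 37. These minima belong to those backgrounds, and over a background of 4.00 peaks with 27 reads were called at MIR17HG and MIR181A1HG. A site too weak for its own background would not have been listed. Neither the read count nor the background at MIR155HG is part of the files used here, so no minimum can be given for it.

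**Figure D2:**
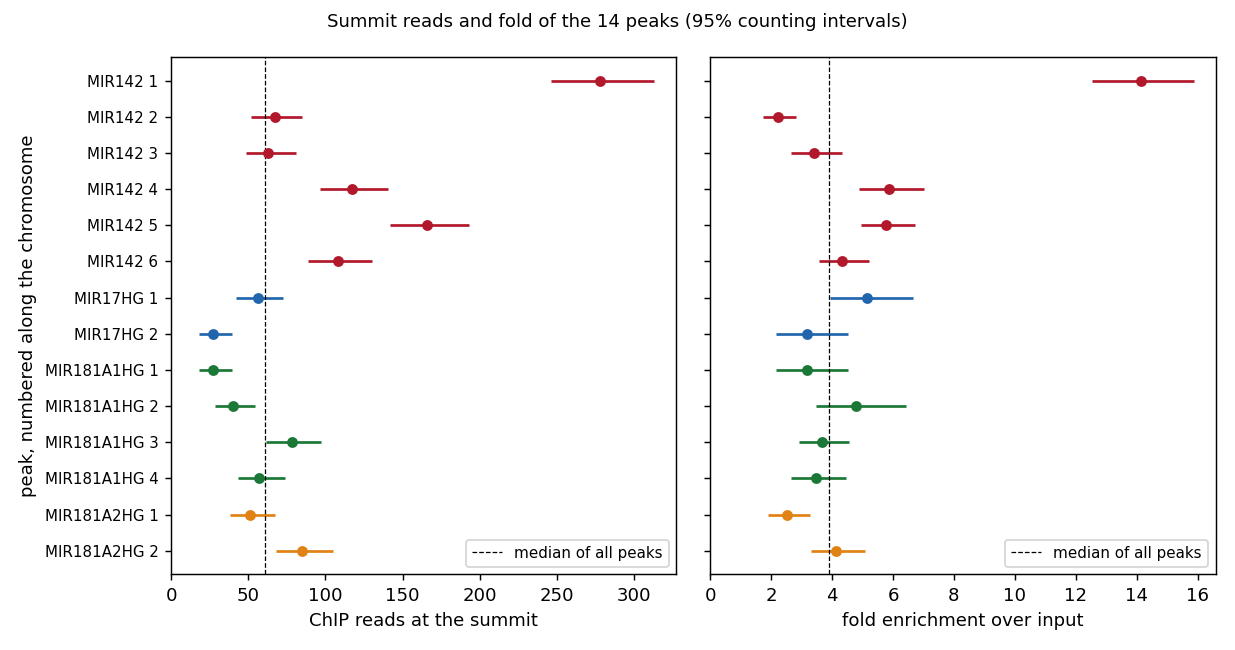
ChIP reads at the summit (left) and the authors' fold enrichment over input (right) of the 14 peaks, numbered along the chromosome within each locus. Points are single values of the pooled ChIP, bars are exact Poisson 95% intervals with the input background held fixed, and dashed lines mark the medians of all peaks (61 reads, fold 3.89). MIR142 peak 1 lies apart at 278 reads and a fold of 14.1, while the other folds lie between 2.23 and 5.88.

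Ordered by their strongest fold, the loci ran from MIR142 (14.1) over MIR17HG (5.15), MIR181A1HG (4.77) and MIR181A2HG (4.13) to MIR155HG with no call. The counting intervals were 12.5 to 15.9 at MIR142 and 3.93 to 6.64 at MIR17HG, given as a description since MIR142 was chosen for this peak. The intervals of MIR17HG, MIR181A1HG and MIR181A2HG all overlapped one another, and their order by fold was not resolved. By reads the same 3 loci ran differently, with 85 at MIR181A2HG, 78 at MIR181A1HG and 56 at MIR17HG as their highest counts. MIR142 led under fold, −log10 q, reads and width alike.

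By their medians of fold and reads the 14 peaks as a group, MIR142 included, were close to the whole list. Their median fold was 3.89 (range 2.23 to 14.1), beside 3.89 over all peaks, and their median of 65 reads stood beside 61 over all peaks. A fold of at least 5 was reached by 4 of 14 (28.6%, Wilson 95% interval 11.7 to 54.6), against 25.0% of all peaks. A fold of at least 10 was reached by 1 of 14, against 1.72%. The 6 peaks at MIR142 had a median fold of 5.04 and 112.5 reads, with folds from 2.23 to 14.1. The 8 peaks outside MIR142 had a median fold of 3.57 and 53.5 reads, and 1 of them, at MIR17HG, passed a fold of 5.

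**Figure D3:**
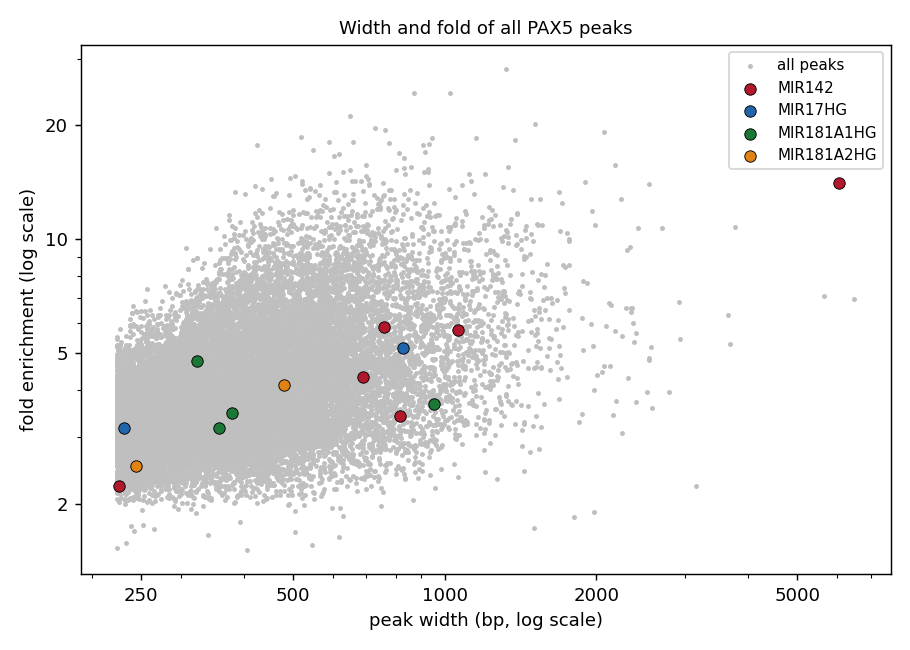
Peak width in bp against fold enrichment for all 21361 peaks (grey) and the 14 peaks at the microRNA loci (coloured), both axes on log scales. The wide MIR142 peak, 6055 bp with a fold of 14.1, lies alone at the upper right, and the others lie within the cloud of all peaks.

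The input background used by the caller for the summits was not the same at all loci. At MIR142 it ranged from 9.45 to 16.0 reads with a median of 11.6, at MIR17HG it was 5.17 and 4.00, at MIR181A1HG 3.82 to 11.0 and at MIR181A2HG 10.6 at both peaks. The median of all peaks was 8.00, and 10 of the 14 peaks stood at or above it, against 50.1% of all peaks. Copy number of the loci in NALM6 was not measured in these files, and its part in the read counts was not tested.

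**Figure D4:**
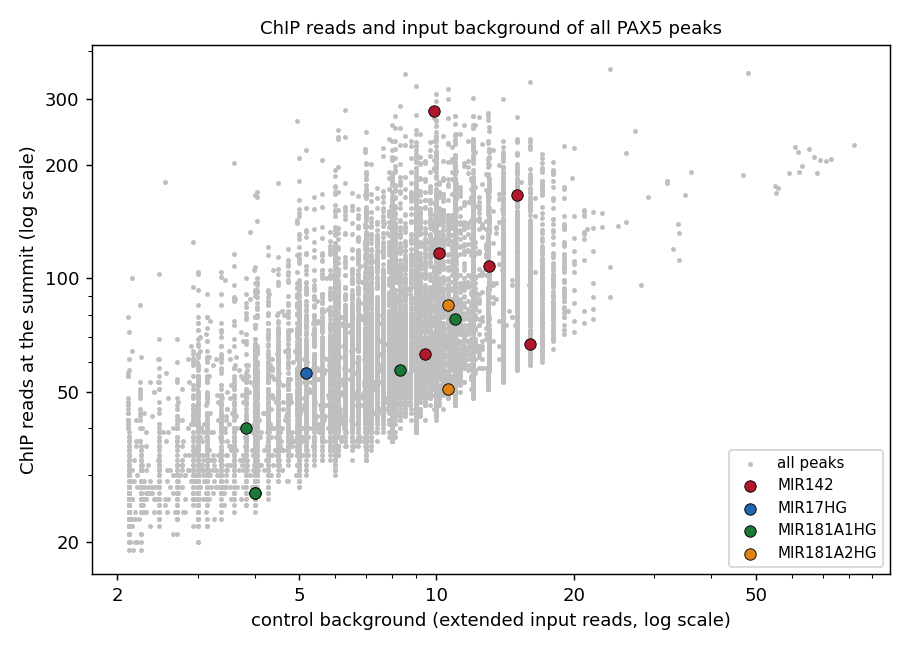
Input background against ChIP reads at the summit for all peaks (grey) and the 14 peaks at the microRNA loci (coloured), both axes on log scales. The outer MIR17HG peak is hidden under a MIR181A1HG peak with the same values (27 reads over 4.00), and all 6 MIR142 peaks lie to the right of the median background of 8.00.

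All 14 peaks were present with identical borders in the authors' cleaned list, so none of them was altered by the cleaning step. How large a share of all peaks kept their borders was not determined, so this count does not set the loci apart. The criteria of the cleaning step are not known.

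Start-site sequences are shown for a locus with strong binding, one with moderate binding near the host start and one with no call. They cover 250 bases before to 50 after the RefSeq start, from GRCh38.p14. Letters matched by any of 3 motifs on either strand are in capitals. The motifs were GCGTGAC (a PAX5 core), GGAAGT (ETS family) and CAGCTG (an E-box of the E2A type).
MIR142HG, chr17:58332471-58332770, minus strand: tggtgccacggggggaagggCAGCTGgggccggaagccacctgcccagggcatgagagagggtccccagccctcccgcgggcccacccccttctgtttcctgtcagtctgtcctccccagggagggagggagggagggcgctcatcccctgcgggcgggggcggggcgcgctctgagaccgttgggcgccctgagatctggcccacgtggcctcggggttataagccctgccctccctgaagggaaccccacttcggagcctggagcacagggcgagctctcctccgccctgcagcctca
MIR17HG, chr13:91347437-91347736, plus strand: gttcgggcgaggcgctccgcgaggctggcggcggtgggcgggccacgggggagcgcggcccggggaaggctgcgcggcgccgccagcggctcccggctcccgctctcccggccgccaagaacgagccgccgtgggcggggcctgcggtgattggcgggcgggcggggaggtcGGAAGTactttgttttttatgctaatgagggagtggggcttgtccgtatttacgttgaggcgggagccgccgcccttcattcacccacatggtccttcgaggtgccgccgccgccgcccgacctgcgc
MIR155HG, chr21:25561895-25562194, plus strand: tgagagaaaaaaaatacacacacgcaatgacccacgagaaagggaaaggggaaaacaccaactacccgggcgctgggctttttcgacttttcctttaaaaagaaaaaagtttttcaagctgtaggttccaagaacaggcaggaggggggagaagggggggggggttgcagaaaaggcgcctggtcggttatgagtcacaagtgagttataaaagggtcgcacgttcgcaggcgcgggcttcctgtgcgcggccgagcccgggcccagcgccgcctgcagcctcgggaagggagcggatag

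The MIR142HG start region held 1 E-box match, beginning at -230 bases from the start. The MIR17HG region held 1 ETS match, beginning at -78. No motif was found at MIR155HG or MIR181A1HG, and the PAX5 core was in none of the 4 regions. Among all 35116 such regions of the table, 2.52% held the PAX5 core, 22.8% the ETS motif and 17.9% the E-box. No match overlapped another in the printed sequences. A match marks letters only, and whether these regions lie under the hg19 peaks was not determined.

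In base composition the start regions differed widely. MIR17HG had a GC content of 73% with 42 CpG pairs, MIR142HG 71.3% with 17, MIR155HG 56% with 20 and MIR181A1HG 42.3% with 0, beside medians of 58.7% and 14 over all regions. As many CpG pairs as at MIR17HG were found in 5.85% of regions.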

How the data were processed

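PAX5 ChIP-seq of NALM6 was analysed from the authors' peak tables (2 samples, 1 ChIP and 1 input, no replicates). The submitters' processing notes name BWA and the build hg19. MACS 2.1.1.20160309 called peaks at a q threshold of 0.05 with 50 bp tags extended to 225 bp, keeping 1 tag per position (per the file headers). The deposited pileup signal counts extended ChIP reads at the summit, scaled to the input depth, per the file headers. The deposited fold ratio divides it by the local input background, and the deposited −log10 p and q values come from the same comparison. These are the authors' own values per peak. For the local background the file headers give ranges of 1000 and 10000 bp, so it need not be a read count at the summit itself.

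ChIP reads were recovered by dividing the pileup by 0.550; all (100%) came out whole within 0.005 pileup units. The background was recovered from pileup and fold with the caller's pseudocount of 1. Fold intervals hold it fixed. Recovery and peak selection were tested on simulated data. Loci, lists and motifs were chosen with earlier results of these data known. Every peak inside a locus is reported. No test between samples was possible. Sequences are from RefSeq (GRCh38.p14) and no position was moved between builds. The start region of MIR181A2HG is not shown. Alternatives varied the flank, the list, merging, thresholds and ranking. Scripts ran on Python 3.11.15 with scipy 1.17.1, pandas 2.3.3, numpy 2.4.6 and, for plots, matplotlib 3.10.9.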

Additional observations from a re-analysis of the deposited data

How the results depend on the processing

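The count of 14 peaks depended on how far a locus was taken to reach and on the threshold. It was 7 without the flank, when MIR142 kept 1 of its 6 peaks, 6 at a −log10 q of at least 10 and 4 at a fold of at least 5. It was 10 with peaks within 500 bp merged, 18 with a flank of 50 kb, and 14 by any overlap and in the cleaned list. Of all peaks, 25.0% had a fold of at least 5. A −log10 q of at least 10.7 was reached by 34.6% of all peaks and one of at least 9.45 by 39.6%. The share of all peaks at 10 lies between these. The wide MIR142 peak had rank 2 by width as called and in the cleaned list, and rank 5 among merged regions. The median fold of 3.89 (order-statistic 95% interval 3.17 to 5.77), the share at a fold of 5 and the density of 46.1 peaks per Mb (25.2 to 77.3) stayed inside their intervals in every alternative run. These intervals are wide and take the 14 peaks as independent, although 6 lie at MIR142. Staying inside them therefore does not show that a value was stable. The lowest median fold was 3.56 and the lowest density 25.6 per Mb. The share fell from 28.6% to 12.5% without MIR142. The chromosomes of the loci held between 4.87 (chromosome 13) and 17.0 (chromosome 17) peaks per Mb. Without MIR142 the density was 29.3 per Mb, with 0 peaks at MIR155HG. The loci were chosen by their peaks, so these densities carry no test. The alternatives that changed a result added, removed or joined peaks, and no further cause was tested. No paired analysis was possible because each group has 1 sample. The order of MIR17HG, MIR181A1HG and MIR181A2HG by fold was not resolved, and the part of depth in this was not tested. A missing call at MIR155HG does not show the absence of binding.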

Other observations

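Beyond the flanks, the surroundings of the loci held peaks that the rule leaves out. At MIR181A1HG the strongest summit within 150 kb of the window was outside it, at 199010810 on chromosome 1, 104 kb upstream of the host's window edge. It held 200 reads (173 to 230) over 13.0, with a fold of 7.90, and so exceeded all 4 peaks of the locus in reads and in fold. Nearer to the window on the same side, summits 71.8, 83.2 and 93.5 kb away held 58, 75 and 46 reads. On the other side of the window, 3 summits between 125 and 142 kb away held 34, 108 and 77 reads. In RefSeq the protein-coding gene nearest to MIR181A1HG is PTPRC, the gene of the leukocyte surface phosphatase CD45, 50.5 kb from the host. At MIR142 there were 4 summits beyond the flank within 150 kb, with folds between 2.80 and 4.89, none of which reached the fold of the wide peak.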
